A study of Mus musculus with 4 samples.

Results

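The EGF family ligands are the small growth factors that bind the receptor tyrosine kinases of the ERBB family, and their transcripts were followed here in tumor cells of MMTV-Neu mice with and without Pak1. The family was taken as 10 genes, Egf, Tgfa, Areg, Ereg, Btc, Hbegf, Epgn, Nrg1, Nrg2 and Nrg4, chosen by name, with earlier results of these data known. All non-control probes carrying 1 of these names were read, which gave 12 probes of the 39429 on the array, for 10 of its 31829 genes. Total RNA of 4 samples was labeled with Cy3 and hybridized to 1-color Agilent mouse arrays with 60-base probes. All 4 samples were tumor-derived breast cancer cells from mice in which the mouse mammary tumor virus promoter, which is active mainly in mammary epithelium, drives the Neu (Her2, Erbb2) oncogene. Of these samples, 2 were Pak1 -/- and 2 were Pak1 +/+, and every sample was starved of serum for 3 h and then given EGF for 15 min. Each group came from 2 different tumors, grown in culture, so the arrays of a group served as replicates, and p-values cover the spread between tumors of a genotype only as far as 2 tumors show it. The arrays of each genotype lay side by side on 1 slide read in 1 scan, so position on the slide and genotype cannot be told apart.

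EGF family ligands are made as membrane-anchored precursors, are released by metalloproteases, and act on the cell that made them or on its neighbors. Egf, Tgfa, Areg and Epgn bind EGFR; Btc, Hbegf and Ereg bind EGFR and ERBB4; Nrg1 and Nrg2 bind ERBB3 and ERBB4, and Nrg4 binds ERBB4. ERBB2 binds no ligand of its own and is the preferred partner of the other receptors, and in the mammary gland amphiregulin, the product of Areg, is the ligand needed for growth of the ducts at puberty.

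Before the ligands, the labels were examined through Pak1 itself. The probe named Pak1 had normalized log2 intensities of 12.21 and 12.25 in the Pak1 -/- arrays and of 12.04 and 12.04 in the Pak1 +/+ arrays. They differed by 0.19 (SE 0.07), which missed the threshold (limma, adjusted p = 0.070). The readings thus were not lower in the arrays labeled Pak1 -/-, and whether the probe lies in the deleted part of the gene was not known, so that all directions here follow the labels. The median signal was 322 to 331 over a median local background of 39.0 to 42.0, and 62.2% to 70.4% of probes were well above background on an array. Of the defining markers of epithelium, Krt8, Krt18, Epcam and Cdh1 were well above background on all 4 arrays and Krt19 on 3. Their summed level, the log2 of the summed linear intensities, was 19.83 to 19.85 in Pak1 -/- and 19.46 in both Pak1 +/+ arrays. Such a sum is set mainly by the brightest genes, here Krt18 and Krt8. Among the epithelial markers Cdh1 (1.19), Krt8 (0.57) and Krt18 (0.27) rose on the log2 scale, and Epcam (-0.23) and Krt19 (-0.64) did not pass. Basal markers differed between the groups: all 5 (Krt5, Krt14, Krt17, Trp63, Acta2) were higher in Pak1 -/-, with a level summed in the same way of 16.53 and 16.40 against 14.24 and 14.20. Fibroblast markers summed to 10.43 to 10.61 against 10.24 to 10.29, and 4 of 8 genes (Col3a1, Dcn, Lum and Pdgfrb) stayed near background on every array, while Col1a1 was higher in Pak1 -/- (8.88 to 9.31 against 7.93 to 8.03). The summed leukocyte list was 15.67 to 16.19 against 15.40 to 15.54, with all 5 of its genes well above background on all arrays. This sum was carried by 1 probe of Itgam (16.07 and 15.51 against 15.39 and 15.20, not past the threshold), whose other 2 probes read 7.35 to 8.23. At the brightest probes Ptprc alone passed the threshold, lower in Pak1 -/- (7.14 to 7.15 against 7.59 to 7.60). The endothelial list was 13.26 to 13.32 against 13.12 to 13.39, with no gene of 3 past the threshold at its brightest probe. The other probe of Kdr read 8.05 and 7.92 against 6.61 and 6.63, and was well above background on no Pak1 +/+ array. Its rise is therefore given only as a bound, at least 2.17-fold. The part of these shifts in the results for the ligands was not tested, and in such bulk RNA fewer cells that make a transcript and less of it per cell cannot be told apart.

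Epgn and Areg lie in 1 cluster of ligand genes on mouse chromosome 5 and differed between the genotypes in opposite directions, and their promoters are shown for that reason. Each line holds the 250 bases before the annotated start in RefSeq (GRCm38.p6), 5′ to 3′ on the strand of the gene, for Epgn chr5:91027267-91027516 and for Areg chr5:91139349-91139598, both on the plus strand. Capitals mark matches to the motifs searched.
Epgn: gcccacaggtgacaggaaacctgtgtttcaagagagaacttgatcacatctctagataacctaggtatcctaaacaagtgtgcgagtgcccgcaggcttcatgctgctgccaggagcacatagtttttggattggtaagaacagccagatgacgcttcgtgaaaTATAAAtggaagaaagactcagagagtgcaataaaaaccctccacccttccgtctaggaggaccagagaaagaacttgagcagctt
Areg: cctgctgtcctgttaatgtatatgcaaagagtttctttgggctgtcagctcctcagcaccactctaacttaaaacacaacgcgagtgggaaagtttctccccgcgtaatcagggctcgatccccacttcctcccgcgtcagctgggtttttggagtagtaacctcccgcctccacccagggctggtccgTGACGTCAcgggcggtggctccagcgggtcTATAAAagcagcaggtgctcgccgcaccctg
Both strands were searched for a cAMP response element (TGACGTCA), a TATA box (TATAAA), an AP-1 site (TGANTCA), an NF-kB site and a TEAD site (GGAATG). The Areg window held the cAMP response element starting 61 bases and a TATA box starting 31 bases before the start, and the Epgn window held TATAAA starting 86 bases before it. Of 32851 promoters of this length, 1.55% held the cAMP response element and 12.4% held TATAAA, while 6.75% held the AP-1, 17.6% the NF-kB and 12.6% the TEAD motif. The windows of Btc, Tgfa, Egf and Nrg4 held none of these motifs. Such matches describe the window and do not show that a factor binds there. No matches are given for Ereg, Hbegf, Nrg1 and Nrg2, whose windows were not examined here. Only the promoters of Epgn and Areg are printed.

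Of the 10 ligand genes, 8 were well above background on all 4 arrays and could be compared, and 2 (Ereg and Nrg4) were too dim. All 8 passed the threshold on the adjusted p (0.05, limma), 2 higher (Epgn and Nrg1) and 6 lower (Nrg2, Hbegf, Tgfa, Areg, Btc and Egf) in Pak1 -/-. This has to be read against the whole array, where 51% of the 21961 genes tested passed, 22.8% higher and 28.2% lower. Epgn, Nrg2 and Hbegf passed with at least a 2-fold change, which 12.6% of all genes did. At an adjusted p of 0.01, 4 ligands passed (Epgn, Nrg2, Hbegf and Tgfa), and 32.4% of all genes. The groups did not overlap for any of the 8 ligands, as for 77.6% of all genes. The median log2 difference of the 8 ligands was -0.70 against -0.055 over all genes tested, and their median absolute difference was 0.91 against 0.32. These counts describe the family, and no test of the family against other genes was made.

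**Figure D1:**
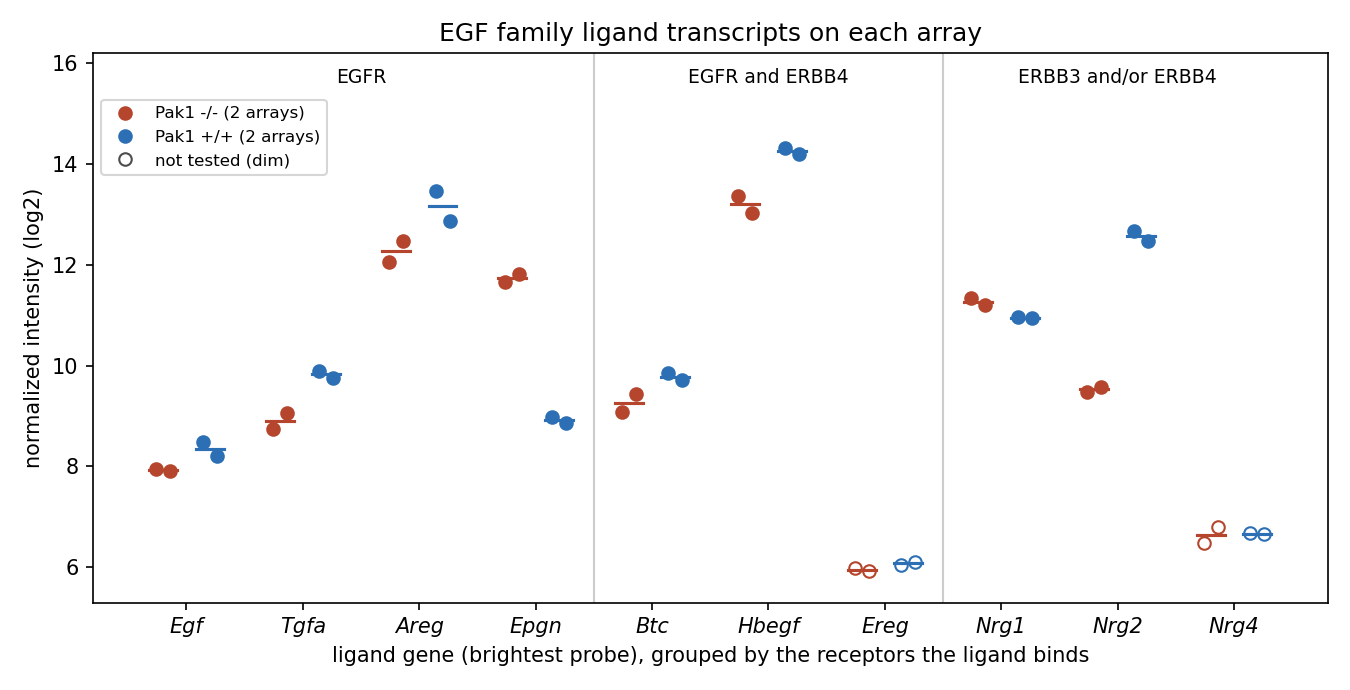
Normalized log2 intensity of each ligand gene at its brightest probe on each of the 4 arrays, with lines at the group means; columns are grouped by the receptors that the ligands bind, and open circles are dim genes that were not tested. Epgn stood at 8.87 to 8.98 in Pak1 +/+ and 11.66 to 11.82 in Pak1 -/-, while Nrg2 fell from 12.48 to 12.67 in Pak1 +/+ to 9.49 to 9.58 in Pak1 -/-. Heights of different genes come from different probes and are not comparable.

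Among the ligands of EGFR alone, Epgn was the member that rose most. It encodes epigen, the most recently described ligand of EGFR, known for its low affinity and high potency. Its probe (chr5:91464119-91464178 in mm9) read 11.66 and 11.82 in the Pak1 -/- arrays and 8.98 and 8.87 in the Pak1 +/+ arrays. Both Pak1 -/- arrays were far above both Pak1 +/+ arrays, and the arrays within a group differed by much less than the groups. The log2 difference was 2.82 (SE 0.09, 95% confidence interval 2.58 to 3.06), a 7.05-fold rise (limma, adjusted p = 1.2e-04). In rank this was the 246th highest difference of 21961 genes, and 1.64% of genes had a larger absolute difference.

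Tgfa, which encodes transforming growth factor alpha, a ligand made by many carcinoma cells for their own EGFR, went the other way. Its probe (chr6:86224838-86224897) read 8.73 and 9.06 in Pak1 -/- against 9.90 and 9.76 in Pak1 +/+. The groups did not overlap, although the Pak1 -/- arrays lay further apart than the Pak1 +/+ arrays. Tgfa was lower by 1.91-fold in Pak1 -/- (log2 difference -0.93, SE 0.13, limma, adjusted p = 0.0050). This probe was printed 10 times on each array, which shows how well 1 array reads it. After outlier flags 8 to 9 spots remained per array, with an SD between spots of 0.019 to 0.11. The highest unflagged spot of any Pak1 -/- array was 9.21 and the lowest of any Pak1 +/+ array was 9.58, so that single spots did not overlap, nor did they with the flagged spots kept (9.21 and 9.40).

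Areg read 12.06 and 12.47 in Pak1 -/- and 13.46 and 12.86 in Pak1 +/+, at chr5:91570090-91570149. No Pak1 -/- array reached a Pak1 +/+ array, but the gap of the nearest arrays was smaller than the spread inside the Pak1 +/+ group. The log2 difference was -0.89 (SE 0.25), 1.85-fold lower in Pak1 -/- (limma, adjusted p = 0.037), with the widest interval of the 8 ligands (-1.54 to -0.24). This call depended on the processing and on single arrays: the adjusted p was 0.051 without the offset, 0.051 with the processed signal of the scanner software and 0.052 in the log2 table of the authors. It was 0.17 without Pak1 -/- replicate 1, 0.067 without Pak1 -/- replicate 2 and 0.080 without Pak1 +/+ replicate 1, and the difference ranged from -1.19 to -0.59 over these fits and the one without Pak1 +/+ replicate 2 (adjusted p = 0.014).

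Egf encodes the founding member of the family, and what its probe reads is the transcript of the cells, not the EGF protein added to the medium. At chr3:129380826-129380885 it read 7.95 and 7.91 in Pak1 -/- and 8.49 and 8.21 in Pak1 +/+. The log2 difference was -0.42 (SE 0.11), 1.34-fold lower (limma, adjusted p = 0.035). The unflagged spots of this probe gave a less clear picture than those of Tgfa: spots of the Pak1 -/- arrays reached 8.11 and those of Pak1 +/+ replicate 2 went down to 7.96, so that single spots overlapped, while the lowest unflagged spot of Pak1 +/+ replicate 1 was 8.43. With flagged spots kept, Pak1 -/- replicate 2 reached 8.52, above the lowest spots of Pak1 +/+ replicate 1, so that this array overlapped as well. The call was lost without Pak1 -/- replicate 1 (adjusted p = 0.11), Pak1 -/- replicate 2 (0.13) or Pak1 +/+ replicate 1 (0.11). Spots of 1 array share its RNA and are not replicates of a genotype.

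**Figure D2:**
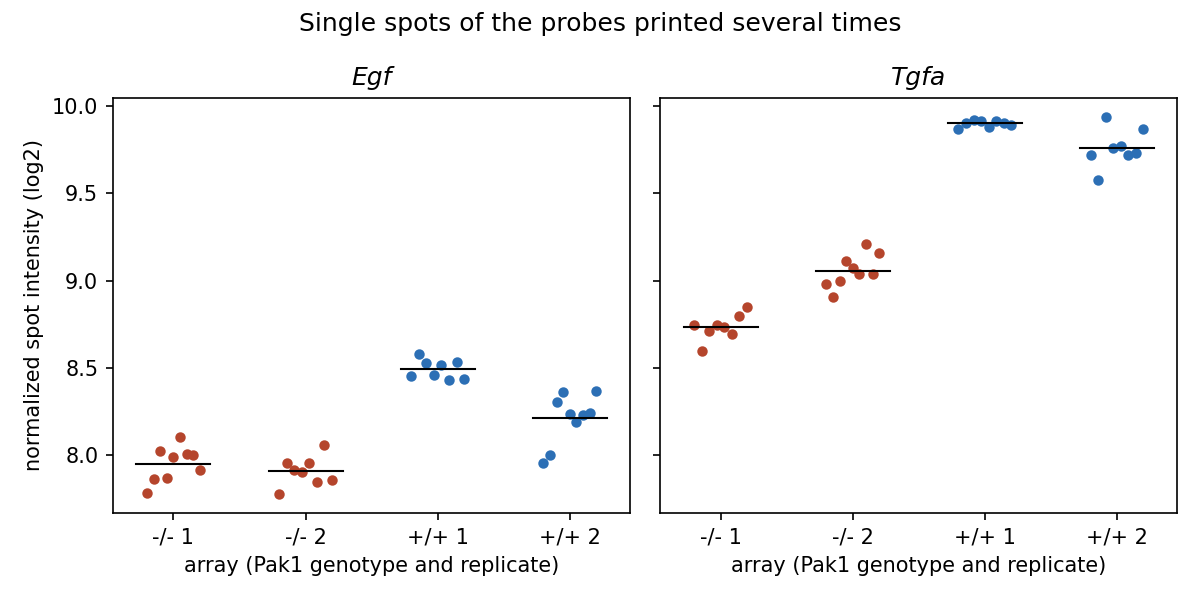
Normalized log2 intensity of every unflagged spot of the Egf and Tgfa probes on each array (8 to 9 spots per array), with a line at the mean of the array. For Tgfa all Pak1 +/+ spots (9.58 and above) were above all Pak1 -/- spots (9.21 and below), while for Egf the spots of Pak1 +/+ replicate 2 reached into the Pak1 -/- range.

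Of the ligands shared by EGFR and ERBB4, Hbegf and Btc were lower in Pak1 -/- and Ereg was not measured. Hbegf encodes heparin-binding EGF-like growth factor, whose precursor is also the receptor for diphtheria toxin in humans. Its values at chr18:36664738-36664797 were 13.37 and 13.03 in Pak1 -/- and 14.32 and 14.19 in Pak1 +/+. Every Pak1 -/- array was below every Pak1 +/+ array by more than the arrays of a group differed. Hbegf fell 2.08-fold (log2 difference -1.06, SE 0.14, limma, adjusted p = 0.0039).

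Btc encodes betacellulin, named for its growth effect on pancreatic beta cells. It read 9.09 and 9.43 in Pak1 -/- and 9.85 and 9.71 in Pak1 +/+ (chr5:91786948-91787007). The lower Pak1 +/+ array was closer to the higher Pak1 -/- array than the Pak1 -/- arrays were to each other. The log2 difference of -0.52 (SE 0.14, 1.43-fold lower) passed the threshold (limma, adjusted p = 0.033) but lost it without Pak1 -/- replicate 1 (adjusted p = 0.074), Pak1 +/+ replicate 1 (0.11) or Pak1 +/+ replicate 2 (0.062), with cyclic loess (0.056) and in the log2 table of the authors (0.053). Ereg, the gene of epiregulin, read 5.98 and 5.92 in Pak1 -/- and 6.04 and 6.11 in Pak1 +/+ and on no array was its probe (chr5:91522553-91522612) well above background. Its mean spot signal before correction was 47.8 to 54.5 over a local background of 37.0 to 45.0, so that neither a level nor a direction is given.

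The neuregulins held the member that fell most. Nrg2 encodes neuregulin 2, a ligand of ERBB3 and ERBB4, and was read by 2 probes. The brighter probe (chr18:36177332-36177391) gave 9.49 and 9.58 in Pak1 -/- and 12.67 and 12.48 in Pak1 +/+. The other (chr18:36197886-36197945) gave 6.95 and 7.01 in Pak1 -/- and 9.03 and 8.91 in Pak1 +/+. Both probes were low in both Pak1 -/- arrays with no overlap, and both were well above background on all arrays. The brighter probe fell 8.23-fold (log2 difference -3.04, SE 0.10, 95% confidence interval -3.30 to -2.79, limma, adjusted p = 1.2e-04) and the dimmer one 3.97-fold (log2 difference -1.99, SE 0.08, adjusted p = 1.9e-04). The offset added in background correction draws the differences of dim probes toward 0, so the gap between the sizes at the 2 probes is not read as a difference between transcripts. By its brighter probe Nrg2 had the 97th largest fall of 21961 genes.

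Nrg1 encodes neuregulin 1, the best known ligand of ERBB3, and has many isoforms. Which of them could be read was set by its 1 probe on the array (chr8:32928500-32928559 in mm9). Where this probe lies among the exons was not annotated here, and isoforms without its sequence were not measured. It read 11.34 and 11.20 in Pak1 -/- and 10.96 and 10.94 in Pak1 +/+. The groups did not overlap, and the log2 difference of 0.32 (SE 0.08) was a 1.25-fold rise (limma, adjusted p = 0.029). In size this was unremarkable, since 50.5% of genes had a larger absolute difference. The call was lost without Pak1 -/- replicate 1 (adjusted p = 0.082), Pak1 +/+ replicate 1 (0.10) or Pak1 +/+ replicate 2 (0.12). Both probes of Nrg4 read 6.46 to 6.80 on all arrays, and the only reading well above background was that of the probe at chr9:55068030-55068089 on 1 Pak1 -/- array (6.73). Nrg3, which binds ERBB4 and is not among the 10 genes, read 6.18 to 6.76 and was not well above background on any array.

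**Figure D3:**
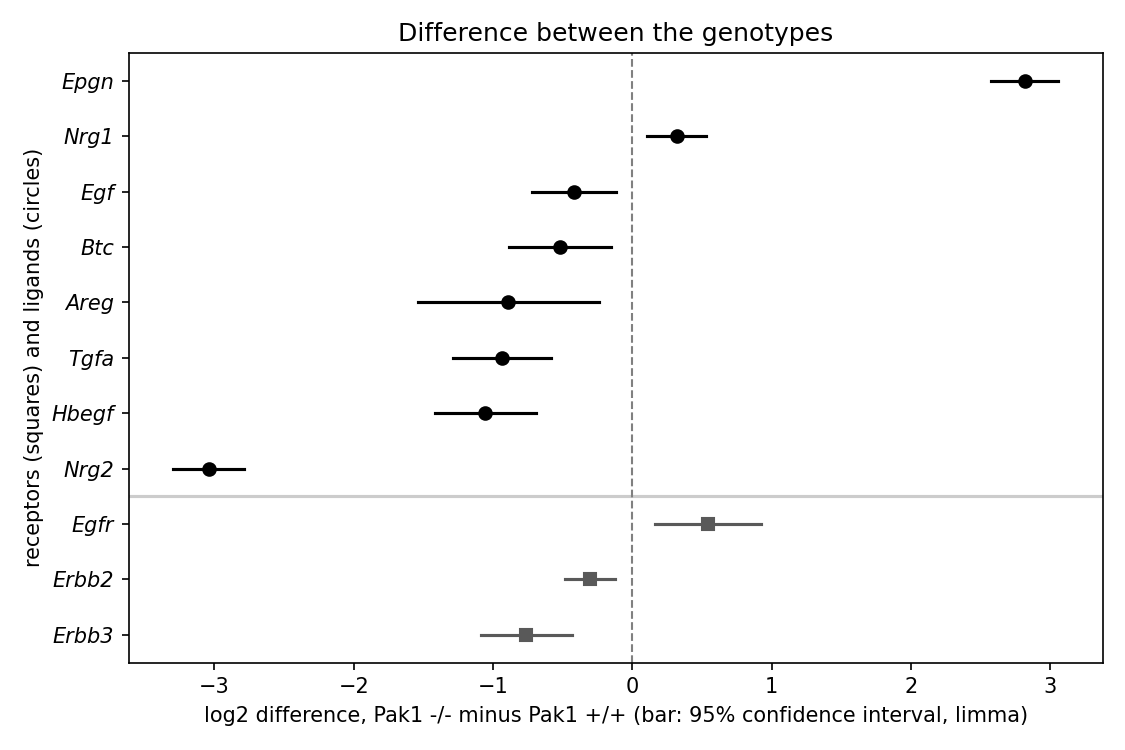
Log2 difference between Pak1 -/- and Pak1 +/+ (horizontal axis) of the 8 ligands and 3 receptors tested, each at its brightest probe, with bars for the 95% confidence interval from limma. Epgn (2.82) and Nrg2 (-3.04) lie far outside the range of the other ligands (-1.06 to 0.32).

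The 8 calls were not equally firm. At an adjusted p of 0.05, Epgn, Nrg2, Hbegf and Tgfa passed in every alternative that gave them a value, including each fit without 1 array (Tgfa and Egf had no value in the log2 table of the authors), with differences of 2.74 to 3.07 for Epgn, -3.20 to -2.52 for Nrg2, -1.23 to -0.88 for Hbegf and -1.10 to -0.77 for Tgfa. Only a required 2-fold change would set Tgfa aside. The highest adjusted p over these alternatives was 0.0041 for Epgn, 0.0046 for Nrg2, 0.016 for Hbegf and 0.021 for Tgfa. Areg, Btc, Egf and Nrg1 kept their direction in every alternative, but each passed in only 1 of 4 fits without an array. With all 4 arrays under other processing Areg passed in 6 of 10 alternatives, Btc in 7 of 10, Egf in 8 of 9 and Nrg1 in 9 of 10. The highest adjusted p was 0.17 for Areg, 0.13 for Egf, 0.12 for Nrg1 and 0.11 for Btc.

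**Figure D4:**
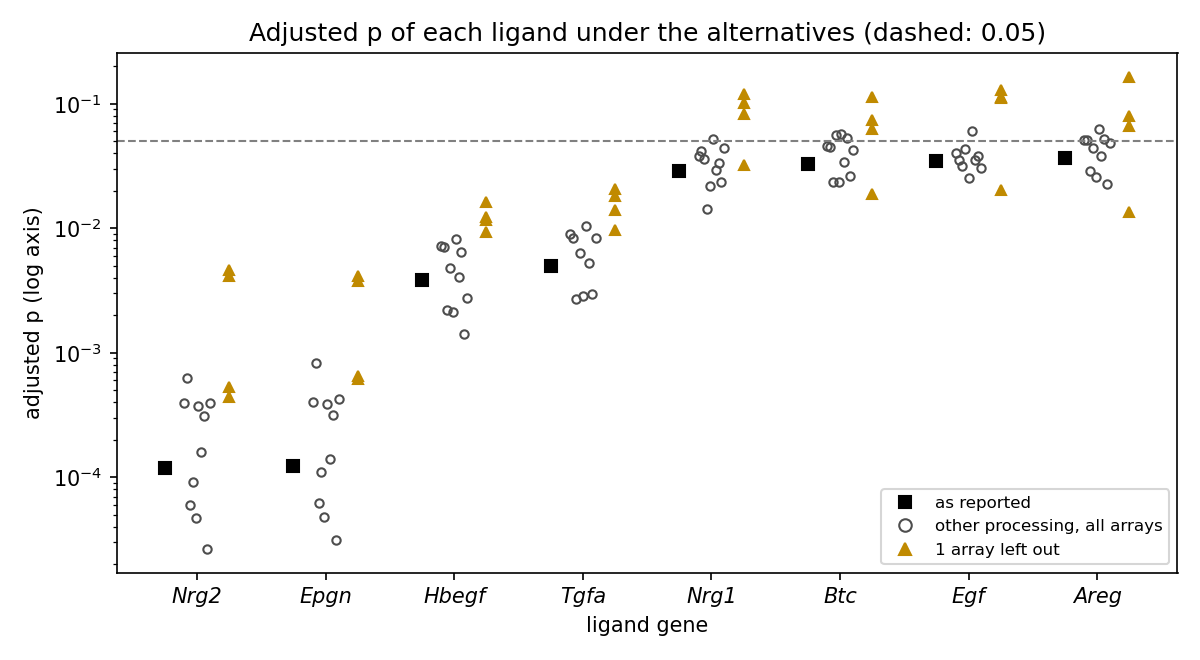
Adjusted p of the 8 ligands (log axis) as reported (squares), under other processing of all 4 arrays (circles) and with 1 array left out (triangles); the dashed line is the threshold of 0.05. Nrg2, Epgn, Hbegf and Tgfa stay below the line throughout, while Nrg1, Btc, Egf and Areg each cross it when any of 3 arrays is left out and under at least 1 other processing of all arrays (Areg in 4 of 10, Btc in 3 of 10).

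The positions of the ligand genes show how local each difference was. On chromosome 5 the probes of Ereg, Areg and Btc lie 58.4, 106 and 323 kb from that of Epgn. Its neighbors went both ways, and those named here were chosen after their values were seen. Mthfd2l, 13.9 kb before Epgn and the nearest gene tested, read 11.98 and 11.91 in Pak1 -/- and 12.39 and 12.44 in Pak1 +/+, a fall of 0.47 on the log2 scale (limma, adjusted p = 0.0059). Of 13 other genes tested within 500 kb of Epgn, 3 were higher and 5 were lower, and the lower ones include the ligands Areg and Btc. Cxcl3 was higher by 1.63 and E330024J20Rik by 0.62 log2 (limma, adjusted p = 4.5e-04 and 0.011). Pf4 read 7.69 and 7.79 in Pak1 -/- and 6.49 and 6.45 in Pak1 +/+. It was well above background on only 2 arrays, so the size of its rise is not given. Over the 1336 genes of the chromosome 38.8% were lower and 14.1% higher. The median difference near Epgn was -0.19, the same as that of the chromosome (-0.19). Thus 1 cluster held a ligand that rose, 2 that fell, and 1 that was too dim to read.

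On chromosome 18 both Nrg2 and Hbegf fell, and many genes around them fell too. The probes of Nrg2 and Hbegf lie 487 kb apart, and of the 7 genes tested between them 6 were lower and 0 were higher, with a median log2 difference of -0.79 (-1.19 to -0.087). Within 500 kb of Hbegf 17 of 28 genes were lower and 3 higher, and within 500 kb of Nrg2 15 of 23 were lower and 2 higher; these windows overlap, and each ligand counts in the window of the other. Over the chromosome 44.9% of 537 genes were lower, against 28.2% of all genes, and its median difference of -0.23 was the second lowest of the 20 chromosomes. Nrg2 itself fell by more than any gene between it and Hbegf, but Hbegf (-1.06) did not. Of the genes between them, 0610010O12Rik (-1.19), ENSMUST00000050584 (-1.14) and LOC100045958 (-1.10) fell more than Hbegf, and the others fell less. Beyond Hbegf, within 500 kb, E230025N22Rik was lower (-2.77) and Pcdha8 was higher (2.30). The lower readings of the neighbors are given beside those of Nrg2 and Hbegf, and their part in the falls of these ligands was not tested.

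Around the remaining ligands the picture was mixed. Within 500 kb of Tgfa 12 of 27 genes were lower and 4 higher, on a chromosome where 34.8% were lower and 18.1% higher. Near Egf 1 of 10 was lower and 4 were higher, on a chromosome where 14.2% were lower and 40.5% higher. The median difference of that chromosome was 0.18, so that Egf went against its surroundings in sign. Nrg1 had 1 tested neighbor, which was higher by 0.36 on the log2 scale.

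**Figure D5:**
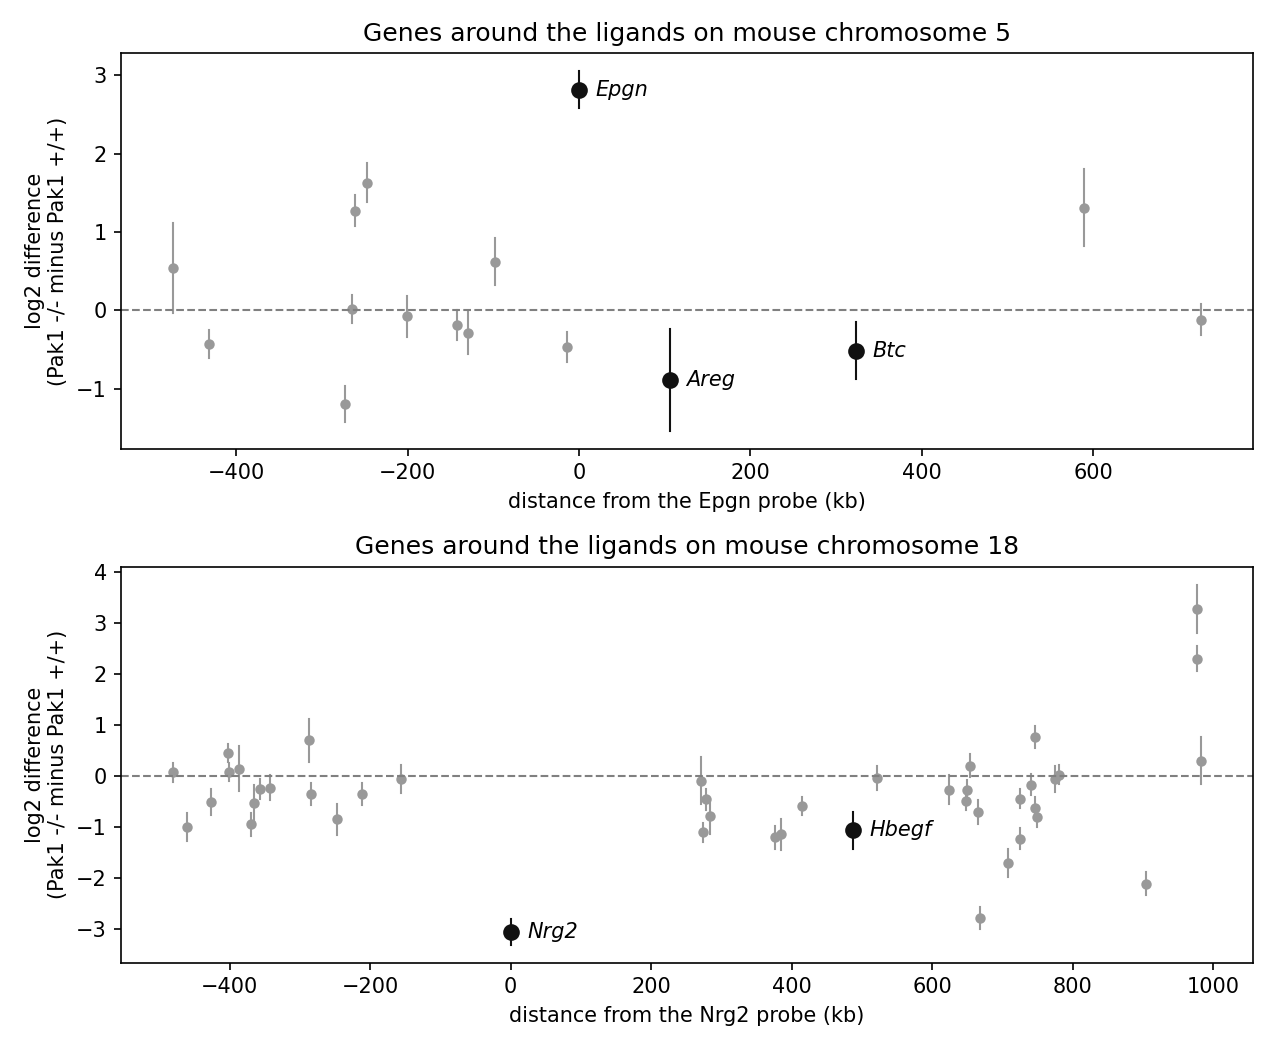
Log2 difference between Pak1 -/- and Pak1 +/+ (vertical axis, with 95% confidence intervals) of each tested gene against its distance in kb from the Epgn probe on chromosome 5 (top) and from the brighter Nrg2 probe on chromosome 18 (bottom); ligands are black and other genes gray. Epgn (2.82) stands above neighbors on either side of 0, while 6 of the 7 genes between Nrg2 and Hbegf were lower.

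The receptors of these ligands did not move together. Egfr, the receptor of 7 of the 10 ligands, read 13.05 and 12.67 in Pak1 -/- and 12.27 and 12.36 in Pak1 +/+, a rise of 0.55 log2 (SE 0.14, limma, adjusted p = 0.032). Its other 2 probes rose as well (adjusted p = 0.011 and 0.010). The call at the brightest probe held without Pak1 -/- replicate 2 but was lost without Pak1 -/- replicate 1 (adjusted p = 0.055), Pak1 +/+ replicate 1 (0.10) or Pak1 +/+ replicate 2 (0.071), and with no filter on dim probes (0.056). Erbb3, the receptor of the neuregulins that has little kinase activity of its own, read 9.01 and 9.16 in Pak1 -/- and 9.98 and 9.71 in Pak1 +/+. It fell by 0.76 on the log2 scale (SE 0.12, adjusted p = 0.0075) and passed an adjusted p of 0.05 in every alternative (highest 0.049, without Pak1 -/- replicate 1).

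Erbb2, the gene of the oncogene, read 11.91 and 11.95 against 12.26 and 12.21 in Pak1 +/+, a fall of 0.31 on the log2 scale (SE 0.07, limma, adjusted p = 0.020). That call was lost without Pak1 -/- replicate 1 (adjusted p = 0.066), Pak1 +/+ replicate 1 (0.11) or Pak1 +/+ replicate 2 (0.079), and how much of the signal came from the Neu transgene was not tested. Erbb4 was read by 2 probes, and 1 of them was well above background on 1 array, Pak1 +/+ replicate 1 (8.27, against 6.34 to 6.57 on the others), so that no level is given for the receptor shared by Btc, Hbegf, Ereg and the neuregulins.

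Ligands are released by proteases and their sorting partners, and 15 of the 16 genes listed for these steps were tested. Of these 6 were higher in Pak1 -/-, 0 were lower and 9 did not pass, with a median log2 difference of 0.25. The share higher was 40% beside 22.8% of all genes, and 0 were lower beside 28.2%. In either direction 40% passed, beside 51% of all genes. Adam17 and Adam10, the main sheddases of the family, were among those that did not pass: Adam17 read 9.44 and 9.53 against 9.51 and 9.66, and Adam10 read 15.13 and 15.02 against 15.00 and 14.98. Timp3, an inhibitor of ADAM17, differed most, with 14.80 and 14.71 in Pak1 -/- and 12.22 and 12.11 in Pak1 +/+, a rise of 2.59 log2 (SE 0.08, limma, adjusted p = 1.2e-04). The other genes named by rule were the proteases Adam15 (0.84), Bace1 (0.68) and Furin (0.45), and Rhbdf2 (0.61), which encodes iRhom2, a partner that ADAM17 needs to mature. The genes that rose thus included both an inhibitor and a cofactor of the same protease.

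Among 12 adaptors and regulators of ERBB receptors, 5 were higher, 0 were lower and 7 did not pass. The share higher was 41.7% beside 22.8% of all genes, and 0 were lower beside 28.2%. In either direction 41.7% passed, beside 51% of all genes. Errfi1, which encodes MIG6, an inhibitor of EGFR that its signal induces, read 15.95 and 15.24 in Pak1 -/- and 14.14 and 13.89 in Pak1 +/+. It rose by 1.58 log2 (SE 0.26, limma, adjusted p = 0.0075), with arrays of a group that differed more than those of most genes named here. Gab1 (1.06) and Shc1 (0.67), which encode docking proteins, and Cblb (0.83) and Cblc (0.45), which encode ubiquitin ligases of the receptors, made up the rest. The median log2 difference of these 12 genes was 0.22.

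The genes whose values over the 4 arrays were most like those of Epgn, after the mean of each gene was subtracted, were ENSMUST00000099633, Scml4 and Pcdh21, at Euclidean distances of 0.087, 0.14 and 0.15 log2. In Pak1 +/+ ENSMUST00000099633 read 6.71 and 6.61, where the lowest readings well above background were 6.70 and 7.03, so its distance is uncertain. In all, 169 genes lay within 0.5 log2 of Epgn. Nearest to Nrg2 were 1200009O22Rik, Klra7 and Klra5, at 0.066, 0.098 and 0.11 log2, with 86 genes within 0.5. With 4 arrays in 2 groups this likeness reflects the size of the difference between the genotypes and little else. Klra5 and Klra7 belong to a family of near-identical genes, so their readings are uncertain.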

How the data were processed

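RNA of 4 samples (2 Pak1 -/-, 2 Pak1 +/+, by genotype label) was read on 1-color Agilent arrays. The authors deposited the scanner output of Feature Extraction 9.5.3.1, which gives each spot an intensity on a linear scale, not normalized between arrays, and probe positions in mm9. The authors also deposited a table of normalized log2 values, used as an alternative, which has 24008 rows with values; the offset and filter behind it are not given in the sources used here.

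Normexp correction, quantile normalization and moderated tests in limma follow the methods of the study, and the other choices were set here. Mean spot intensity was corrected with normexp on the local background (offset 50) and put on the log2 scale. It was then quantile normalized and, without spots flagged as outliers, averaged per probe. The 27229 of 39429 probes that were well above background on 2 or more arrays were fitted with lmFit and eBayes in limma 3.58.1 in R 4.3.3, two-sided, genotype as the only term, 2 residual and 2.62 prior degrees of freedom, Benjamini-Hochberg over all probes kept, threshold 0.05. An exact permutation of 2 against 2 cannot give a p below 0.333 and was not used. The number of arrays limits the precision. A gene was read at its brightest probe, and all 12 ligand probes matched RefSeq by accession. Exon annotation in mm9 was not used here. The fit was tested on simulated data.

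Members, lists and tests were chosen with earlier results of these data known. The rule for named genes took all 10 ligands with every probe, Nrg3, Pak1, the 4 receptors, up to 5 genes of each other pathway list with the largest absolute log2 difference among those past the threshold, and the 3 genes most like the ligand that rose and the ligand that fell most; genes outside it were chosen after their values were seen. Alternatives were other offsets, background corrections, normalizations, filters, probe summaries, priors and thresholds, the log2 table of the authors, a replicate block, and each array left out. Of the leukocyte markers, 1 is not reported here and was left out of the list. Human cell samples of the study were not analysed here.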

Additional observations from a re-analysis of the deposited data

How the results depend on the processing

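No ligand or receptor tested changed direction under any alternative. With no filter on dim probes 1 ligand was higher and 3 were lower, as Areg, Btc, Egf and Nrg1 moved to adjusted p of 0.063, 0.057, 0.060 and 0.052 (limma). Their log2 differences were unchanged, their SE were slightly larger (0.255 in place of 0.247 for Areg), and the correction ran over 39429 in place of 27229 probes. The share of each in the lost calls was not tested. In the log2 table of the authors, which had values for 6 of the 8 ligands tested, 2 were higher and 2 were lower. At an adjusted p of 0.01, 1 ligand was higher and 3 were lower, 1 gene of the pathway lists was lower (9 higher), and 8878 probes passed in place of 14132. With a 2-fold change required as well, 1 ligand was higher and 2 were lower, 3 pathway genes were higher and 0 lower, and 3413 probes passed. Leaving out each array in turn gave 1 to 2 ligands higher and 3 to 5 lower, 9 to 13 pathway genes higher and 1 to 2 lower (12 and 2 with all arrays), and 10314 to 12172 probes; the lone array of a group was then assumed to vary like the others.

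The replicate numbers did not pair the samples (r of the differences between replicates across probes -0.028, genes not being independent). With the replicate number as a block 2 ligands were higher and 6 lower, 12 pathway genes were higher and 2 lower, and 13211 probes passed, and no call on a ligand or receptor changed. Ereg and Nrg4 were near background, and their log2 differences without the filter (-0.12 and -0.032, adjusted p = 0.30 and 0.88) are of little meaning.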
